A study of Mus musculus with 6 samples.

Results

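The miR-30 family was followed on miRNA arrays of mouse lung through 9 probes, chosen by name from the 1963 mature miRNAs with a probe on the array. They comprised the 5p arms of miR-30a, miR-30b, miR-30c, miR-30d and miR-30e, the 3p arms of miR-30a, miR-30d and miR-30e, and miR-30f. Total lung RNA came from 3 WT mice that received saline in the trachea and from 3 WT-BLM mice that received bleomycin (BLM), a cytotoxic drug that injures the lung and leads to fibrosis, at 1.5 U/kg. All 6 were adult wild-type C57Bl6 mice, were sacrificed at day 21, and gave 1 array each. The study asked whether inhibiting NF-κB in the lungs of IKBM mice affects fibrosis after bleomycin. As part of it, miRNAs were compared between WT lungs with and without bleomycin. IKBM mice were not analysed here.

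A miRNA gene is transcribed as a hairpin, from which a 5p arm and a 3p arm are cut. One arm is usually loaded into the silencing complex and pairs with target mRNAs mainly through its seed, bases 2 to 8, while the other is mostly lost. The miR-30 5p arms share 1 seed, are common in epithelial tissues, and are known to repress CTGF, a matrix-inducing growth factor, the EMT factor Snail and the autophagy protein Beclin 1.

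The sequences below are those the array was designed for, 5′ to 3′, with the seed in capitals. They are shown because they decide which members share targets and which probes could bind more than 1 member. The 5p arms carried the seed GUAAACA:
mmu-miR-30a-5p: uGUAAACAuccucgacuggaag
mmu-miR-30b-5p: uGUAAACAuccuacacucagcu
mmu-miR-30c-5p: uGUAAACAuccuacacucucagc
mmu-miR-30d-5p: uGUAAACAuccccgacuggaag
mmu-miR-30e-5p: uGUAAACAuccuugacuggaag
The 3p arms carried the seed UUUCAGU:
mmu-miR-30a-3p: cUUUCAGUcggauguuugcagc
mmu-miR-30d-3p: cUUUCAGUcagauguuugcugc
mmu-miR-30e-3p: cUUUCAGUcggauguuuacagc
The last member carried the seed UAAACAU, which no other probe of the array had at bases 2 to 8:
mmu-miR-30f: gUAAACAUccgacugaaagcuc

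With positions numbered from 1 at the 5′ end and the miR-30a-5p base written first, miR-30d-5p differed from it by U12C and miR-30e-5p by C13U. The first 18 bases of miR-30b-5p and miR-30c-5p were identical, and both shared 12 opening bases with miR-30a-5p. Between the 3p arms, miR-30e-3p differed from miR-30a-3p by G18A, and miR-30d-3p by G10A and A20U. Probes for such close sequences can bind one another's miRNAs, so that a value of 1 probe may hold signal of several members. Of all 1963 probes, 6 carried the 5p seed at bases 2 to 8. The sixth was miR-384-5p, which is outside the members chosen by name and was detected on none of the 6 arrays.

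The sequences matched RefSeq (GRCm38.p6) in every one of the 6 members that its table lists. miR-30a-5p and miR-30a-3p lie on the plus strand at chr1:23272274-23272295 and chr1:23272315-23272336. miR-30c-5p comes from Mir30c-2 at chr1:23291714-23291736 and from Mir30c-1 on the minus strand at chr4:120769584-120769606. miR-30e-5p and miR-30e-3p lie on the minus strand at chr4:120772660-120772681 and chr4:120772618-120772639, within the span of the protein-coding gene Nfyc. Nfyc encodes a subunit of the CCAAT-binding factor NF-Y. miR-30f lies on the plus strand at chr4:120772621-120772642, opposite miR-30e-3p. The stretches of these 2 miRNAs that are antisense to each other are in capitals here, and run over 19 bases of each:
mmu-miR-30f: GUAAACAUCCGACUGAAAGcuc
mmu-miR-30e-3p: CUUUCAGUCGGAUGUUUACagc
Bases 1 to 10 of miR-30f also equalled bases 2 to 11 of all 5 of the 5p arms, which places its seed 1 base further along the family sequence.

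Arrays differed in quality. Detection of a probe required a mean of its spots more than 3 SD over the median of the empty control spots. This gave 132 to 365 detected probes per array, fewest in WT mouse 3 and WT-BLM mouse 1. The SD of the empty spots was 59.3 and 45.2 on these arrays and 8.01 to 18.1 on the others. Endothelial (miR-126a) and epithelial (miR-200 family) markers of lung passed the filter with all 2 and 5 of their probes, whereas the liver marker miR-122-5p was detected on 1 array. The summed intensity of 5 striated muscle miRNAs ranged from 1204 to 11196 in WT and from 1511 to 2155 in WT-BLM lungs. The endothelial markers had a median log2 fold change of 0.49, and their summed intensity ranged from 7120 to 16604 in WT and from 16164 to 21746 in WT-BLM lungs. The smooth muscle markers had a median of -0.47, with sums of 22316 to 27496 and 14284 to 22561. The epithelial markers had a median of 0.058, with sums of 5839 to 9324 and 7462 to 8946. No marker probe had an unadjusted p under 0.05 in limma. The part of these cell types in the results was not tested, and in whole lung fewer cells of a type and less RNA per cell cannot be told apart. Probes detected on at least 3 arrays, 275 in all, were tested in limma for a difference of WT-BLM from WT.

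The 5 arms with the shared seed were detected on all 6 arrays, and none differed between the groups beyond the error of the comparison. Together with miR-30a-3p and miR-30e-3p they make 7 members that passed the filter. Of these 7, 6 had a log2 fold change below 0, against 43.6% of all 275 probes, and the members were measured on the same arrays. None of the 7 had an unadjusted p under 0.05 in limma, a limit that 1.82% of all tested probes met, and their adjusted p was 1 throughout. No probe of the array had an adjusted p under 0.05 (limma), while 5 had an unadjusted p under 0.05, and by the methods' t-test with and without pairing these numbers were again 0, and 9 and 7. The median log2 fold change was -0.23 over the 5p arms and -0.07 over the 2 tested 3p arms, against 0.04 over all tested probes. Intensities below are log2 values after quantile normalization between arrays. They serve to compare mice for 1 probe and do not rank probes by amount.

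**Figure D1:**
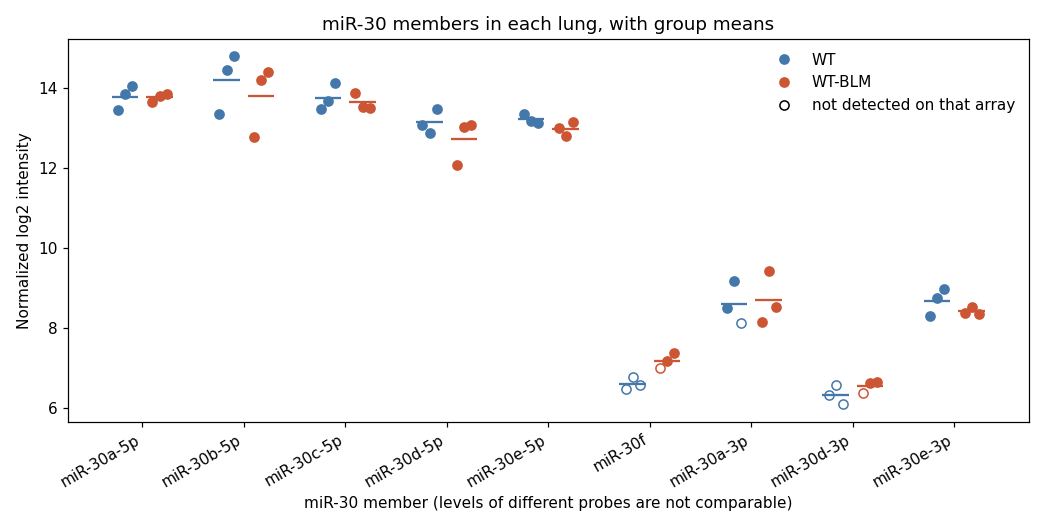
Normalized log2 intensity (vertical axis) of each miR-30 member (horizontal axis) in 3 WT (blue) and 3 WT-BLM (red) lungs, 1 point per mouse, with group means as lines and open points where the probe was not detected. The groups overlap for all members except miR-30f, where the WT-BLM points lie above the WT points.

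miR-30e-5p was the steadiest member, with a pooled SD within groups of 0.149 against a median of 0.370 over all tested probes. Its log2 intensity was 13.34, 13.18 and 13.11 in WT lungs 1 to 3, and 12.98, 12.80 and 13.15 in WT-BLM lungs 1 to 3. WT-BLM mice 1 and 2 lay below every WT mouse, and WT-BLM mouse 3 lay just above WT mouse 3. The log2 fold change was -0.23 (standard error 0.21, 95% interval -0.73 to 0.27), with an exact two-sided permutation p of 0.2 at 3 mice per group. Groups without overlap and lower in WT-BLM were found for 0.727% of the tested probes, and for none of the members. In the authors' normalized intensities the values were 9617, 8680 and 8662 in WT and 7865, 7073 and 7875 in WT-BLM lungs. There the groups did not overlap (exact two-sided permutation p = 0.1, the smallest that 3 against 3 mice allow). Among the tested probes, 4.73% had no overlap in that table, and 1.45% had none with WT-BLM lower. The study listed miR-30e-5p from these same mice, so that this table is not independent evidence. Under cyclic loess the groups of miR-30e-5p did not overlap either, as was so, with WT-BLM lower, for 1.82% of the tested probes. With no normalization between arrays, its log2 fold change was -0.025.

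miR-30a-5p, the arm known to repress Beclin 1, had group means that nearly coincided. Its log2 intensity was 13.44, 13.85 and 14.03 in WT lungs, against 13.65, 13.79 and 13.85 in WT-BLM lungs, so that the WT-BLM values lay inside the WT range. The log2 fold change was -0.01 with a 95% interval of -0.56 to 0.54, which leaves room for changes of either sign. Its sign turned in 8 alternative analyses, up to 0.27 without normalization between arrays.

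miR-30c-5p, a product of both Mir30c genes, stood at 13.46, 13.68 and 14.12 in WT lungs, against 13.88, 13.51 and 13.50 in WT-BLM lungs. WT mouse 3 was highest and WT mouse 1 lowest, and the groups overlapped (log2 fold change -0.12, 95% interval -0.72 to 0.48). Without WT mouse 3 the log2 fold change was 0.063.

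miR-30b-5p and miR-30d-5p had the lowest log2 fold changes of the family, and both probes had arrays where their spots disagreed. The log2 intensity of miR-30b-5p was 13.35, 14.43 and 14.79 in WT lungs, against 12.78, 14.18 and 14.38 in WT-BLM lungs. The lowest value of either group was thus far below its other 2. The log2 fold change was -0.41 (standard error 0.53, 95% interval -1.64 to 0.82), and without WT-BLM mouse 1 it was 0.11. Without WT mouse 1 it was -0.83, and without WT mouse 3 it was -0.10. For miR-30d-5p the log2 intensities were 13.08, 12.86 and 13.47 in the WT and 12.07, 13.02 and 13.05 in the WT-BLM lungs. Only WT-BLM mouse 1 stood apart. The log2 fold change was -0.42 (95% interval -1.19 to 0.36), and without WT-BLM mouse 1 it was -0.097.

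Every probe lay on 2 spots of each array, and the spots of both arms disagreed on the arrays with these low values. For miR-30b-5p in WT-BLM mouse 1 the spots read 1722 and 21551 above the empty spots, a ratio of 12.5. The brightness within the dim spot had an SD of 36.9% of its intensity, against 5.09% in its partner. In WT mouse 1 the spots of miR-30b-5p read 20951 and 3812. For miR-30d-5p in WT-BLM mouse 1 they read 6966 and 1899, with SDs within the spot of 3.36% and 4.14%. These were the 3 of 30 pairs of 5p spots, or 10%, with a log2 gap above 1, against 7.12% of the pairs of the other 110 probes detected on all arrays. The other 27 pairs differed by at most 0.88, and the largest of these gaps was that of miR-30a-5p in WT mouse 1, with spots at 7609 and 14664.

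**Figure D2:**
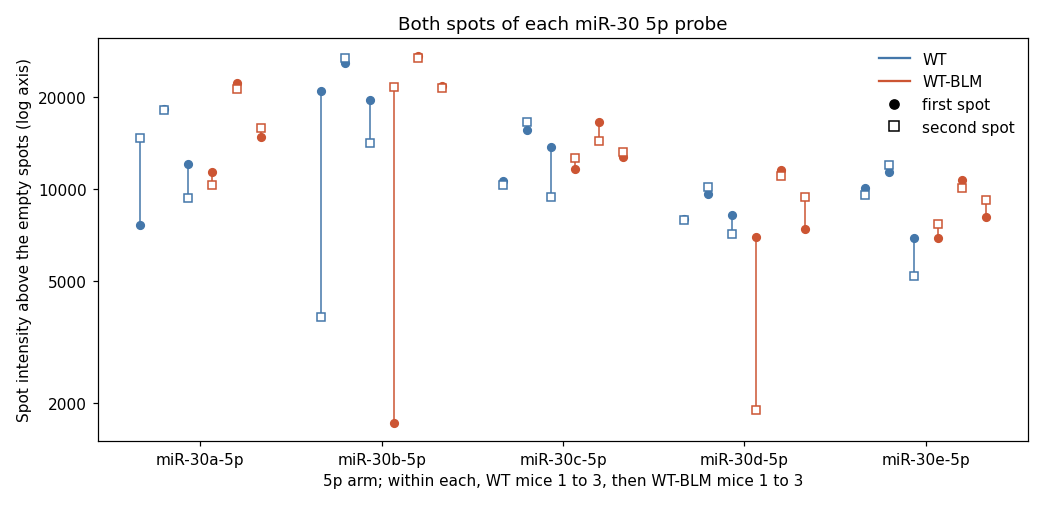
Intensity of both spots of each 5p probe above the empty spots (vertical log axis) for every mouse (horizontal axis, grouped by arm), with WT in blue, WT-BLM in red, and a line joining the spots of 1 array. Long lines mark miR-30b-5p in WT mouse 1 and WT-BLM mouse 1 and miR-30d-5p in WT-BLM mouse 1, while most pairs lie close together.

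The authors' table treated these pairs differently from the average used here. On each array its value was a nearly fixed multiple of the mean of the spots above the empty spots for the 5p arms with agreeing spots, between 0.979 and 1.00 in WT mouse 1 and between 1.08 and 1.11 in WT-BLM mouse 1. For miR-30b-5p this multiple was 1.73 and 2.07 on these arrays, and for miR-30d-5p in WT-BLM mouse 1 it was 1.71. Relative to the brighter spot alone the multiples were 1.02, 1.12 and 1.09. The authors' values of these 3 pairs thus corresponded to the brighter spot. For miR-30a-3p, whose spots read 102 and 417 in WT-BLM mouse 1 and 132 and 454 in WT-BLM mouse 3, the multiples of the mean were 0.910 and 0.877, close to the 0.942 and 0.919 of miR-30e-3p, so that there both spots had entered.

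With the brighter spot kept in pairs that differed by more than 1, an alternative chosen after the spots had been seen, the low values of both arms moved toward the other mice. miR-30b-5p then stood at 14.35, 14.43 and 14.79 in the WT and at 14.41, 14.18 and 14.38 in the WT-BLM mice. Its log2 fold change became -0.20 (standard error 0.21). That of miR-30d-5p became -0.14 (standard error 0.22). With the discordant values left out instead, miR-30b-5p had 2 mice per group and a log2 fold change of -0.33 (standard error 0.28, adjusted p = 1 in limma). Both WT-BLM mice lay below both WT mice, a separation that 2 mice per group reach easily. Its share over all probes in this setting was not counted. miR-30d-5p then stood at -0.095. With the brighter spot kept, the largest difference among the 5p arms was the -0.23 of miR-30e-5p, whose spots agreed on every array. In the authors' values on the log2 scale with 50 added, the log2 fold changes of the 5p arms lay between -0.24 for miR-30e-5p and 0.022 for miR-30a-5p.

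**Figure D3:**
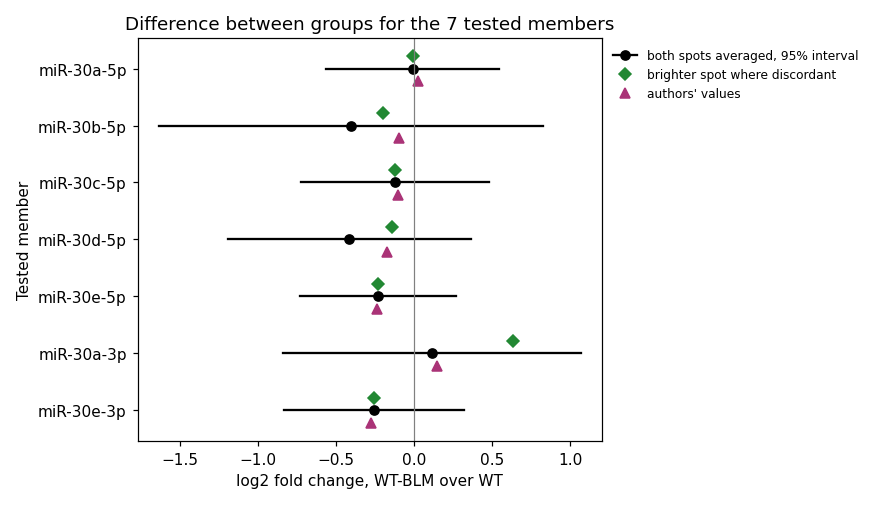
log2 fold change of WT-BLM over WT (horizontal axis) for the 7 tested members (vertical axis), as black points with 95% intervals for the average of both spots, green diamonds with the brighter spot kept in discordant pairs, and purple triangles for the authors' values. Every interval includes 0, and the values of miR-30b-5p and miR-30d-5p move toward 0 in both other sets while that of miR-30a-3p moves up with the brighter spot.

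The 3p arms, cut from the opposite side of the hairpins, passed no test between the groups either. miR-30e-3p was detected on every array and stood at 8.28, 8.75 and 8.96 in the WT and at 8.37, 8.51 and 8.34 in the WT-BLM mice. All WT-BLM values lay within the WT range (log2 fold change -0.26, standard error 0.25, 95% interval -0.84 to 0.32). Its log2 fold change was -0.45 without WT mouse 1 and -0.11 without WT mouse 3. miR-30a-3p, detected on 5 arrays, stood at 8.48, 9.15 and 8.11 in the WT and at 8.15, 9.42 and 8.50 in the WT-BLM mice. Its log2 fold change was 0.11 (95% interval -0.84 to 1.07). It became 0.63 (standard error 0.30, adjusted p = 1 in limma) with the brighter spot kept and 0.84 with the values of WT-BLM mice 1 and 3 left out for discordant spots, which leaves 1 WT-BLM mouse. With the brighter spot kept its values in WT-BLM mice 1, 2 and 3 were 9.03, 9.42 and 9.19, and the groups overlapped through WT mouse 2.

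The difference between the arms of a hairpin, 5p minus 3p on the log2 scale within each mouse, was compared between groups for miR-30a and miR-30e. For miR-30a it was 4.96, 4.69 and 5.92 in the WT and 5.497, 4.36 and 5.34 in WT-BLM lungs. The change of -0.12 was smaller than the SD of either group, 0.646 and 0.616 (n = 3, exact two-sided permutation p = 0.9). For miR-30e the difference was 5.05, 4.43 and 4.14 in the WT and 4.61, 4.29 and 4.81 in the WT-BLM mice, a change of 0.027 (exact two-sided permutation p = 1). The groups overlapped for both hairpins. With the brighter spot kept, the difference for miR-30a was 4.96, 4.69 and 5.92 in WT against 4.62, 4.36 and 4.66 in WT-BLM lungs, where the groups did not overlap and the change was -0.64 (exact two-sided permutation p = 0.1). Discordant spots of miR-30a-3p lay in WT-BLM mice 1 and 3 only, so that keeping the brighter spot altered no WT value. How often other hairpins separate in this way was not counted. On the authors' log2 values with 50 added, the change for miR-30a was -0.12 (exact two-sided permutation p = 0.9). With discordant spots set to missing, which leaves 1 WT-BLM mouse, the change was -0.83.

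**Figure D4:**
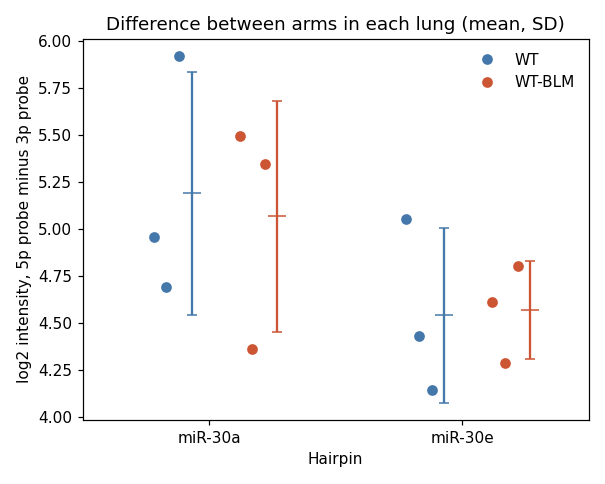
log2 intensity of the 5p probe minus that of the 3p probe (vertical axis) for the hairpins of miR-30a and miR-30e (horizontal axis), 1 point per mouse, WT in blue and WT-BLM in red, with the group mean and SD beside the points. The groups overlap for both hairpins.

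miR-30d-3p was at the limit of the array. Its mean signal above the empty spots was 17.5, 25.2 and -12.6 in the WT and 18.4, 46.2 and 28.2 in the WT-BLM mice, and it was detected in WT-BLM mice 2 and 3 only. The empty spots of these arrays had an SD of 15.0 and 8.01, against 59.3 in WT mouse 3. No fold is given at signals this low, and the arm difference of miR-30d is left out because its 3p arm was detected in no WT mouse.

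With both spots averaged after quantile normalization, miR-30f was the 1 member whose groups did not overlap, with higher signal in WT-BLM lungs. Its signal above the empty spots was 27.7, 41.5 and 20.02 in the WT and 69.5, 99.6 and 80.0 in the WT-BLM mice, and both spots of each WT-BLM mouse were above both spots of every WT mouse. On the log2 scale it stood at 6.47, 6.78 and 6.56 in the WT and at 6.98, 7.16 and 7.37 in the WT-BLM mice (exact two-sided permutation p = 0.1). It was detected in WT-BLM mice 2 and 3 and in no WT mouse, so that it missed the filter. In WT mouse 3, where the SD of the empty spots was 59.3, a signal at the WT-BLM level would not have counted as detected, and no fold is given. The measured group means were 6.60 and 7.17. Without a filter, 8.66% of all 1963 probes had groups without overlap, and 4.38% had none with WT-BLM higher.

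In the authors' values miR-30f stood at 18, 30 and 31 in the WT and at 61, 61 and 69 in the WT-BLM mice. The means were 26.3 ± 7.23 (SD, n = 3) and 63.7 ± 4.62, again without overlap, as were 6.72% of all probes of that table, with 3.06% higher in WT-BLM. The study listed miR-30f from these same mice too. After scaling to the 75th percentile its groups overlapped. When all 1963 probes were tested in limma, miR-30f had an unadjusted p of 0.0051 and an adjusted p of 0.97. In that fit 46 of the 1963 probes had an unadjusted p under 0.05.

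The 2 miRNAs at this locus that are read from opposite strands thus stood in opposite order by their means. In the authors' values miR-30e-3p was 315 ± 111 (SD, n = 3) in WT and 242 ± 23.6 in WT-BLM lungs, with 203, 317 and 424 against 252, 259 and 215, so that its groups overlapped. The 5p partner from the same hairpin, miR-30e-5p, was lower in all WT-BLM mice of that table. The 10 bases that miR-30f shares with the 5p arms are on its probe. The log2 fold changes of the 5p arms ran from -0.42 to -0.01 after quantile normalization. Without normalization between arrays they ran from -0.27 to 0.27. The part of the shared bases in the signal of miR-30f was not tested.

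**Figure D5:**
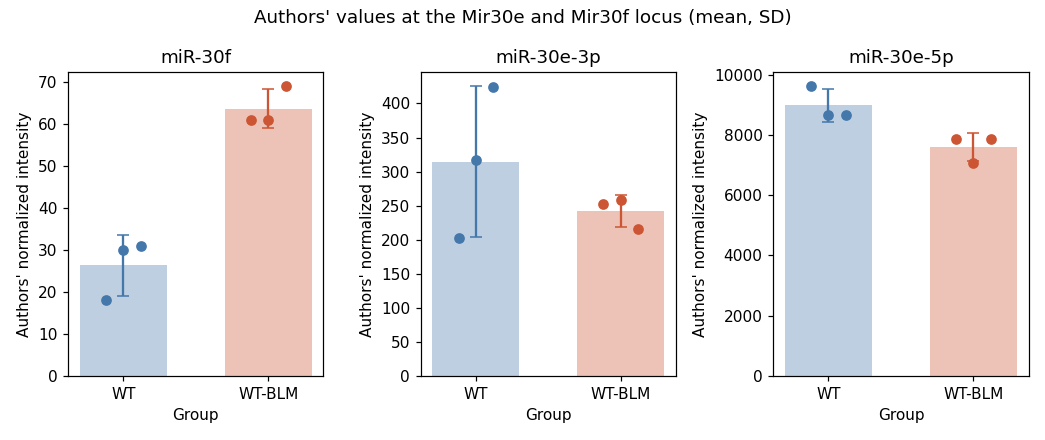
The authors' normalized intensity (vertical axes, linear, from 0) of miR-30f, miR-30e-3p and miR-30e-5p in WT (blue) and WT-BLM (red) lungs, with bars for the means, error bars for the SD and 1 point per mouse. miR-30f is higher in all 3 WT-BLM mice and miR-30e-5p lower, while miR-30e-3p overlaps.

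The remaining arms of these hairpins on the array were dim. miR-30b-3p was detected on 3 arrays, and miR-30c-1-3p and miR-30c-2-3p on 4 each. Their log2 fold changes were -0.39, 0.33 and 0.0052, with standard errors of 0.41, 0.43 and 0.26, and the groups overlapped for all 3. They do not carry the seed of the other 3p arms. miR-30c-1-3p and miR-30c-2-3p share the seed UGGGAGA, and that of miR-30b-3p is UGGGAUG.

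Centred on each probe's own mean, the average of the 5p arms was -0.16, 0.11 and 0.41 in the WT and -0.42, -0.03 and 0.10 in the WT-BLM mice, highest in WT mouse 3 and lowest in WT-BLM mouse 1. Before normalization the mean log2 intensity of the 5p arms was 13.22, 13.92 and 13.28 in the WT and 12.86, 13.97 and 13.62 in the WT-BLM lungs, so that WT mouse 3 was then among the lower arrays and the profile depends on the scaling. WT mouse 3 and WT-BLM mouse 1 are the arrays with the widest scatter of the empty spots, whose part in the profile was not tested. miR-30e-5p did not follow it, being lowest of the WT mice in WT mouse 3. Among the 116 probes detected on all arrays, the non-members with the smallest root mean square difference from this profile over the 6 arrays were miR-92a-3p (0.108), miR-32-5p (0.127), miR-100-5p (0.143), miR-582-5p (0.153) and miR-361-5p (0.173). The members themselves lay between 0.156 for miR-30a-5p, closer than miR-361-5p, and 0.458 for miR-30b-5p. The log2 fold changes of the 5 similar miRNAs lay between -0.25 and -0.095, all with an adjusted p of 1 in limma. These miRNAs were picked by their likeness to a profile with a lower mean in WT-BLM mice. Their signs thus largely followed from the choice and are no separate result.

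Other miRNAs often studied in lung fibrosis, such as miR-21a, the miR-29 and miR-200 families and miR-155, were listed for comparison. Of 18 listed, 17 were tested, 12 with a log2 fold change above 0 and 5 below, where 43.6% of all tested probes were below, and their median was 0.14 against 0.04 over all. An unadjusted p under 0.05 was met by 1 of the 17, against 1.82% of all tested probes. This miRNA was higher in WT-BLM lungs, and none had an adjusted p under 0.05 (limma).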

How the data were processed

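The array service measured total lung RNA, tailed and stained with 1 dye, on 6 arrays. Deposited per array were each spot's median intensity and SD, neither background-corrected nor normalized, and a table of normalized intensities on a linear scale in whole numbers, whose method is not given in the sources used here. Slides and scans are not named in the files, and no batch was tested. In R 4.3.3 with limma 3.58.1, background was corrected by normexp (offset 50) over all 5022 spots, log2 values of miRNA spots were brought to common quantiles, and the spots of each probe averaged. An offset shrinks the differences of dim probes. Groups came from the labels. The 275 probes detected on at least 3 arrays were fitted with lmFit and eBayes and adjusted by Benjamini-Hochberg. Exact permutation tests were two-sided. The number of arrays limits the precision. The steps were tested on simulated data, where the changes put in were larger than those of the members. Changes as small as those of the members, and discordant spots, were not simulated.

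Named were the 9 members, the other 3 arms of their hairpins, and the 5 probes most like the average 5p arm by root mean square difference. The members, lists and alternatives were chosen with earlier results of these data known, as was the alternative that keeps the brighter spot, added after the spots had been seen. RefSeq names and coordinates are those of GRCm38.p6, and positions were matched by miRNA name and sequence; miR-30b-5p, miR-30d-5p and miR-30d-3p were not matched there. Mice with the same number were checked for pairing: their deviations from the group means correlated at 0.16, 0.03 and 0.07, so that the number was taken as a name.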

Additional observations from a re-analysis of the deposited data

How the results depend on the processing

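Of 20 alternatives, all chosen with earlier results known, 1 was added after the spots had been seen. In none of them did an adjusted p fall under 0.05. The values of miR-30d-5p, miR-30e-5p and miR-30e-3p stayed below 0 under each alternative that alters their values. Signal over background limits miR-30f, miR-30d-3p and the other dim 3p arms, and discordant spots limit miR-30b-5p, miR-30d-5p and miR-30a-3p. The arm difference of miR-30d is not given, as its 3p arm was detected in no WT mouse.

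The number of miRNAs with an unadjusted p under 0.05, 5 as reported, was 8 under scaling to the 75th percentile and under cyclic loess, 14 with array weights, 46 without a filter, 1 with probes detected on all arrays, as more or fewer were tested, and 9 by the methods' paired t-test. With the replicate block, mouse number as a pair, it was 8, and no member was called with or without it. Leaving out single mice gave 1 to 20. It was 20 without WT mouse 3, 11 without WT mouse 1, 3 without WT-BLM mouse 1 and 1 without WT-BLM mouse 3. The methods' paired t-test, where mice are paired by number only, gave miR-30b-5p an unadjusted p of 0.047 and an adjusted p of 0.999. Apart from these counts the cause was not tested.

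The median of the 5p arms, -0.23 as reported, was -0.025 without normalization, -0.11 on the authors' values, -0.12 with discordant spots missing and -0.14 with the brighter spot kept. It lay between -0.30 and -0.097 with a mouse left out, where it was -0.10 without WT mouse 3, -0.097 without WT-BLM mouse 1 and -0.15 without WT-BLM mouse 2. The median of the 3p arms turned from -0.07 to 0.11 without a filter, to 0.29 with discordant spots set to missing, where miR-30a-3p rests on 1 WT-BLM mouse, and to 0.19 with the brighter spot kept. It went to -0.34 under scaling to the 75th percentile, and to -0.26 when detection on every array was required, which left 1 arm. With a mouse left out it lay between -0.28 and 0.084, above 0 without WT mouse 2 and without WT-BLM mouse 1. The members below 0 numbered 4 to 7. The arm difference of miR-30a turned to 0.18 under scaling to the 75th percentile and without normalization and to 0.089 under cyclic loess, and lay between -0.36 and 0.24 with a mouse left out. It turned without WT mouse 3 or WT-BLM mouse 2. That of miR-30e lay between -0.16 and 0.29, and turned without WT mouse 2, WT mouse 3 or WT-BLM mouse 3.

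Under 75th percentile scaling the median of all tested probes went from 0.04 to -0.22. On that scale miR-30a-3p turned to -0.19, miR-30c-1-3p to -0.11 and miR-30c-2-3p to -0.29. Under cyclic loess miR-30a-5p was 0.099 and miR-30c-2-3p -0.069. Without normalization miR-30a-5p was 0.27, miR-30c-5p 0.11 and miR-30c-2-3p -0.0082. With an offset of 16 miR-30c-2-3p was -0.017. On the authors' values miR-30a-5p was 0.022 with and without 50 added. With array weights miR-30a-5p was 0.064, miR-30a-3p -0.11, miR-30c-2-3p -0.023, miR-582-5p 0.050 and miR-361-5p 0.023. miR-32-5p was 0.064 with discordant spots set to missing and 0.051 with the brighter spot kept.

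With a mouse left out, the ranges were -0.58 to -0.097 for miR-30d-5p, -0.30 to -0.15 for miR-30e-5p and -0.45 to -0.11 for miR-30e-3p, and those that crossed 0 were -0.17 to 0.11 for miR-30a-5p, -0.83 to 0.11 for miR-30b-5p, -0.26 to 0.063 for miR-30c-5p, -0.25 to 0.39 for miR-30a-3p, -0.64 to 0.018 for miR-30b-3p, -0.091 to 0.58 for miR-30c-1-3p, -0.18 to 0.20 for miR-30c-2-3p, -0.37 to 0.069 for miR-32-5p, -0.44 to 0.028 for miR-100-5p, -0.20 to 0.044 for miR-582-5p and -0.27 to 0.044 for miR-361-5p.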
